A study of Homo sapiens with 3 samples.

Results

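Genes encoding enzymes that add or remove methyl groups on histones, and enzymes that remove acetyl groups, were examined in 2 RNA libraries of A375 melanoma cells, an established human line with mutant BRAF. Members were chosen by symbol: every gene whose name begins with KDM, KMT or SETD and a digit, all HDAC, SIRT and PRMT genes with a number, and EZH1, EZH2, SUV39H1 and SUV39H2. The rule used no measured value and found 67 of the 20344 genes in the files. They are 20 histone demethylases, 21 lysine methyltransferases, 8 arginine methyltransferases, 11 zinc-dependent deacetylases and 7 sirtuins. Levels are in FPKM, which divides the reads of a gene by its length and by the total of the library. Where 2 values of FPKM follow a gene, the first is from the A375 library and the second from the A375-VR library. Of the 67, 61 reached an FPKM of 1 in at least 1 library and are called measured here. HDAC4, HDAC9, KDM7A and KDM8 did so in only 1 library, and the other 57 in both.

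The libraries are named after their titles. The A375 library carries the title A375, Prop. The A375-VR library carries the title A375-VR, Prop. Each group has 1 library. A further sample with the title A375-VR, DMSO is not analysed here, and its cell line label is A375. The labels disagree: the protocol given for every sample names A375-VR cells with DMSO or propranolol at 20 µM for 24 h, while the first library has A375 as its title and cell line label. Propranolol blocks beta-adrenergic receptors, and the series title ties VR to resistance to vemurafenib, an inhibitor of mutant BRAF. Neither title marks an untreated culture. Cell line, treatment, culture and library preparation cannot be told apart in the difference between the libraries. There is no replicate check and no test of a condition. In bulk RNA, fewer cells of a type and less RNA per cell cannot be told apart either.

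Histone tails carry marks that writers add and erasers remove. Methylation of lysine 4 of histone H3 (H3K4) marks active promoters and enhancers and is written by KMT2 and SETD1 enzymes and erased by KDM1 and KDM5 enzymes. Methylation of lysine 27 (H3K27), written by EZH1 and EZH2 in polycomb repressive complex 2, and of lysine 9 (H3K9), written by SUV39H1 and SUV39H2, marks silent chromatin. PRMT enzymes methylate arginines of histones and of many RNA-binding proteins. HDAC enzymes use zinc and sirtuins use NAD to remove acetyl groups. In melanoma, EZH2 is known as an enzyme that can carry activating mutations, and KDM5B as a marker of slow-cycling, drug-tolerant cells.

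The total behind the FPKM values was 17811339 for the A375 library and 16438482 for the A375-VR library. Measured members had a median of 605 and 655 recovered reads. Intervals given with a fold are 95% exact Clopper-Pearson intervals on those reads and cover counting error only. The recovered reads are the smallest whole numbers that fit. Where the true reads are more, an interval is too wide and may hold 1 for that reason. Of the melanoma markers, SOX10 had 65.3 and 150 FPKM, CSPG4 22.5 and 39.2, S100B 3.72 and 12.6 and MITF 6.47 and 3.47, while the pigment genes PMEL, MLANA, TYR, TYRP1 and DCT stayed under FPKM 1. Summed over their lists, fibroblast markers had 4.90 and 7.09 FPKM, endothelial markers 0.755 and 2.19, and leukocyte markers 0.540 and 1.78, with 6 of 10 leukocyte markers at 0 in both. Keratinocyte markers summed to 47.8 and 59.5 FPKM, and 5 of 8 were at 0 in both. Of that sum, KRT10 made up 44.9 and 56.0.

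Promoter sequences are shown for 5 members: 4 that were lower in the A375-VR library and 1 that was higher. The windows of KDM5B and KDM6B, which were also higher, held no match and are not shown. Every window shown thus bears a match. They are RefSeq sequences of GRCh38.p14, read 5′ to 3′ on the strand of the gene, from 250 bases before the start to 30 bases after it. Capitals mark matches, on either strand, to CCAAT (the CCAAT box), to CACGTG (the E-box core), or to TTTCCCGC, TTTCGCGC, TTTGCCGC or TTTGGCGC (words of the E2F site). TTTGAA (the CHR element) and TGACGTCA (the CRE) were searched too and were not found in these 5 windows. For EZH2 and SUV39H1, which have 2 windows each, the one with more matches is shown.
EZH2 promoter (chr7:148884262-148884541, minus strand): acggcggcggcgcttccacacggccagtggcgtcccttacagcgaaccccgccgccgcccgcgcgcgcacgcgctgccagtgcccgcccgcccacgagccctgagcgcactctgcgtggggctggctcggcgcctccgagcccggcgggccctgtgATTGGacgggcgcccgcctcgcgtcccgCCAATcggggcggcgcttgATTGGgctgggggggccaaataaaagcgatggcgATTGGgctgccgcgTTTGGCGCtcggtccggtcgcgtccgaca
SUV39H1 promoter (chrX:48696484-48696763, plus strand): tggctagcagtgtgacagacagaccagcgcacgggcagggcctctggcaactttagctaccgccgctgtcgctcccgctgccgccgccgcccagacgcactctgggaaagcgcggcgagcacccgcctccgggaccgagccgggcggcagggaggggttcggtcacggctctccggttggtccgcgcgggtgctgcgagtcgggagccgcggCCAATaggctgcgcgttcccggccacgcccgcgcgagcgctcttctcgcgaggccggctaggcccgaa
PRMT5 promoter (chr14:22929347-22929626, minus strand): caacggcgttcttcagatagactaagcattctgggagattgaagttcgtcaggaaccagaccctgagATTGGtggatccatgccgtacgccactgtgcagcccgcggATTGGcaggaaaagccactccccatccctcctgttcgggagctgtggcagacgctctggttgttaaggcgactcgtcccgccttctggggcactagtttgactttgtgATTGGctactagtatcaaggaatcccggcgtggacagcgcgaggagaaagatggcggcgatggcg
PRMT1 promoter (chr19:49677021-49677300, plus strand): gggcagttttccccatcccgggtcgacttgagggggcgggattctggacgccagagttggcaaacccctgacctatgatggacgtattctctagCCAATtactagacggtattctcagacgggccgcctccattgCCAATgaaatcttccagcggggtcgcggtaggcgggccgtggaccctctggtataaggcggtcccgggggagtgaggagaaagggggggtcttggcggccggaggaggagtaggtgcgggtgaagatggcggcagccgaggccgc
KDM4C promoter (chr9:6757723-6758002, plus strand): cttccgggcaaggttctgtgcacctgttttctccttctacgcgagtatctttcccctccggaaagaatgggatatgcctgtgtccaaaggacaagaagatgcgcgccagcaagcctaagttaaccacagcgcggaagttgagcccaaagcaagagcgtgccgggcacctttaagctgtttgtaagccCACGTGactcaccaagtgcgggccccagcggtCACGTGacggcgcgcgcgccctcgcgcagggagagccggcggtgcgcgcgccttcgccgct

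The median of the 61 measured members lay near that of all genes, while families and single enzymes lay on either side of it. The median difference of the members in log2(FPKM + 1), A375-VR minus A375, was 0.12, against 0.10 for all 10761 measured genes. Of the members, 41 had a difference above 0 and 20 below 0, that is 67.2% above 0 against 60.3% of all genes, of which 39.7% were below 0. None of the members was 2-fold apart (a difference of at least 1 in size), where 3.14% of all genes were 2-fold higher and 0.613% 2-fold lower. This scale understates the change of genes with low levels, and plain ratios of FPKM were over 2 for KDM5B, KDM4C, KDM6B, KDM7A and HDAC4. With a pseudocount of 0.1 in place of 1 these 5 (8.20% of the measured members) were 2-fold higher, against 6.40% of all genes. At 1.5-fold, 6 members were higher (KDM5B, KDM6B, KDM4C, HDAC4, HDAC5 and KMT2E), against a background of 11.6%, and 2 were lower (SUV39H1 and PRMT1), against 4.21%. These are 9.84% and 3.28% of the members, so neither count is a result about the members. The counting interval lay above 1 for 28 members and below 1 for 13, where 43.6% and 26.4% of all genes had such intervals.

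Scaling matters for small differences. Scaling by the trimmed mean of log ratios moved the median of all genes from 0.10 to -0.02, and the 1.5-fold calls of members then numbered 5 higher and 4 lower, so that 55.6% of these members were higher in place of 75.0%, and 51.8% of all such genes in place of 73.3%. Rescaling to a common sum gave 13 higher and 1 lower (92.9% higher, against 76.2% of all such genes). It divided each ratio by 0.984, a small rise (for KDM5B from 2.46 to 2.50), but also made the pseudocount smaller beside the values. A pseudocount of 0.1 alone gave 13 higher and 3 lower. These are 21.3% and 4.92% of the members, against 17.0% and 6.16% of all genes. After rescaling, 21.3% of the members were higher and 1.64% lower, against 16.6% and 5.19% of all genes. With the trimmed mean the shares were 8.20% and 6.56%, against 8.13% and 7.57%. The 4 lower members with the trimmed mean were SUV39H1, PRMT1, PRMT5 and EZH2. Folds below are plain ratios of FPKM, and a ratio of 1.08 is the median of all measured genes. A total of 11 members changed sides of 1 under at least 1 scaling (EZH1, HDAC11, KDM1A, KDM2A, KDM6A, KMT2A, KMT5C, SETD1B, SETD2, SETD6 and SIRT3), and no direction is given for them.

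**Figure D1:**
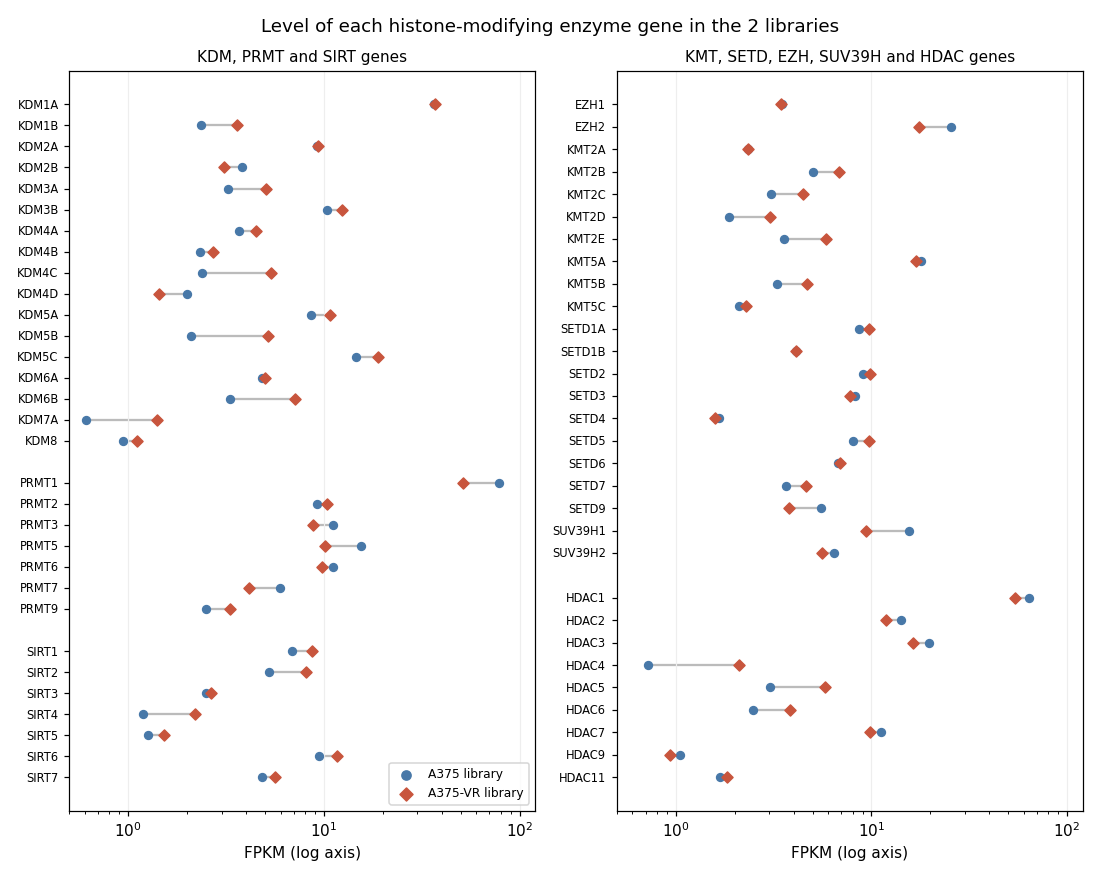
FPKM (log axis) of each of the 61 measured members in the A375 library (blue circles) and the A375-VR library (red diamonds), with 1 library each. PRMT1, HDAC1 and KDM1A had the highest levels, and KDM4C, KDM5B, KDM6B, KDM7A and HDAC4 show the widest gaps to the right.

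Histone demethylases were mostly higher in the A375-VR library. Of 17 measured members 15 had a difference above 0 and 2 below, where 60.3% of all genes were above 0, with a median of 0.24, which is 0.14 above the median of all genes. Fewer, 12 of the 17, lay above the median of all genes. An interval above 1 was found for 10 of them and for 43.6% of all genes. KDM7A and KDM8 passed the filter only through the A375-VR library, where they were higher, and of the other 15 measured KDM genes 13 were above 0 and 2 below. KDM1A, KDM2A and KDM6A lay close to 1, and the trimmed mean and centring on the median ratio put them below it. The KDM genes without KDM5D summed to 111 and 134 FPKM.

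KDM5 enzymes, which erase H3K4 methylation, were all 3 higher. KDM5B (Entrez 10765, chromosome 1 at 202693623 to 202777615 of GRCh37, minus strand) stood at 2.09 and 5.16 FPKM (fold 2.46, interval 2.28 to 2.66). It had the largest difference of all members at 0.99, above that of 96.8% of measured genes. KDM5C, the most abundant of the group and mutated in an X-linked intellectual disability, stood at 14.5 and 19.0 FPKM (fold 1.31, interval 1.24 to 1.38). KDM5A, which binds the retinoblastoma protein, stood at 8.54 and 10.8 FPKM (fold 1.26, interval 1.19 to 1.35). KDM5B thus made up 8.32% of the summed FPKM of these 3 genes in the first library and 14.8% in the second. KDM5D, the Y-linked paralog, is counted among the members but its level is not given.

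The flavin-dependent H3K4 demethylases differed from each other. KDM1A, the LSD1 subunit of the CoREST complex and the most abundant demethylase, stood at 36.3 and 37.1 FPKM (fold 1.02, interval 0.956 to 1.09). KDM1B, its paralog, known from the setting of maternal imprints, stood at 2.34 and 3.61 FPKM (fold 1.54, interval 1.3 to 1.83).

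The KDM6 and KDM4 families each held 1 member with a fold over 2. KDM6B (Entrez 23135, chromosome 17 at 7737535 to 7758114, plus strand), an inducible H3K27 demethylase, stood at 3.30 and 7.11 FPKM (fold 2.15, interval 1.91 to 2.42). Its paralog KDM6A, known as UTX, stood at 4.82 and 4.99 FPKM (fold 1.04, interval 0.923 to 1.16). The order of the pair was reversed as a result: KDM6B made up 40.7% of their summed FPKM in the first library and 58.7% in the second. KDM4C (Entrez 23081, chromosome 9 at 6720863 to 7175648, plus strand), which erases H3K9 and H3K36 methylation, stood at 2.38 and 5.36 FPKM (fold 2.25, interval 2.01 to 2.53). KDM4A and KDM4B, enzymes of the same specificity, had folds of 1.23 (0.946 to 1.59) and 1.17 (1.05 to 1.31). Both intervals held the median ratio of all genes at 1.08. KDM4D, a shorter relative, had 2.00 and 1.43 FPKM, but on 53 and 35 recovered reads its ratio of 0.716 had an interval of 0.453 to 1.12 that held 1. The recovered lengths of KDM4D and KDM4A (1489 and 1724 bases) are below their exonic lengths (2951 and 5184), so their intervals can be too wide. KDM4C went from 22.9% to 38.3% of the summed FPKM of the KDM4 genes, so that it passed KDM4A, at 35.3% and 32.2%. KDM4E rested on 2 and 0 recovered reads, and KDM4F was listed at 0 in both libraries.

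Among the other demethylases, KDM3A, a hypoxia-inducible H3K9 demethylase, stood at 3.24 and 5.06 FPKM (fold 1.56, interval 1.42 to 1.71). KDM3B, the more abundant of that pair, stood at 10.4 and 12.3 FPKM (fold 1.18, interval 1.10 to 1.27). KDM7A, which acts on H3K9 and H3K27, stood at 0.607 and 1.41 FPKM (fold 2.32, interval 1.65 to 3.30). It passed the filter through the A375-VR library alone and rested on 51 and 109 recovered reads. KDM8 had 0.945 and 1.11 FPKM and an interval that held 1, at 1.18 (0.837 to 1.66). The KDM2 enzymes, which erase H3K36 methylation and bind CpG islands, did not share the direction. KDM2A stood at 9.25 and 9.37 FPKM (fold 1.01, interval 0.899 to 1.14). KDM2B, a partner of a variant polycomb complex, stood at 3.80 and 3.07 FPKM (fold 0.809, interval 0.732 to 0.894). On the recovered reads it was the only one of the 17 measured KDM genes with an interval below 1. That of KDM4D can be too wide to tell. Where 60.3% of all genes were above 0, 5 of 7 demethylases outside the naming rule were, with a median of 0.21. Of these, RSBN1 had 2.94 and 4.12 FPKM and PHF8 had 4.79 and 6.24, while RIOX2 had 7.83 and 5.96. JMJD1C, a relative of KDM3A, had a fold of 1.20 (1.10 to 1.31).

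**Figure D2:**
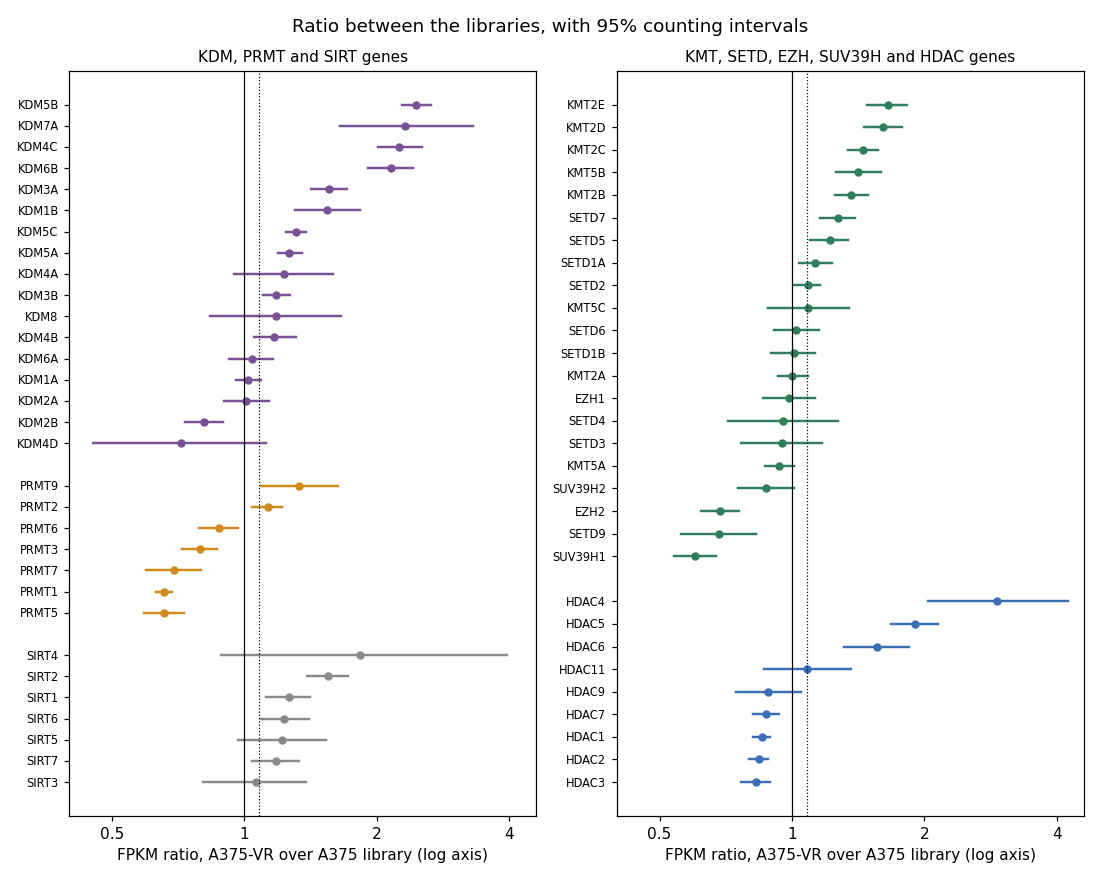
Ratio of FPKM, A375-VR over A375 library, for each measured member (points) with its 95% counting interval (lines) on a log axis, coloured by family; the solid line is 1 and the dotted line the median of all measured genes at 1.08. PRMT1, PRMT5, PRMT7, EZH2, SETD9 and SUV39H1 lie to the left of both lines, and KDM5B, KDM7A, KDM4C, KDM6B, HDAC4 and HDAC5 to the right.

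The methyltransferases for H3K4 were also higher or near 1, while the 4 EZH and SUV39H genes were lower or near 1. All 8 genes grouped as H3K4 enzymes, KMT2E included, were measured, with a median difference of 0.33. Of these, 6 had an interval above 1, as 43.6% of all genes did. That median was 0.22 with the trimmed mean and 0.17 less the median of genes of like length. KMT2A and SETD1B, at folds of 1.00 (0.928 to 1.09) and 1.01 (0.896 to 1.13), changed sides of 1 with the scaling. KMT2E, a member of the family without clear methyltransferase activity, stood at 3.56 and 5.88 FPKM (fold 1.65, interval 1.48 to 1.83). It had the highest fold of the group and, on the scale of log2(FPKM + 1), its only 1.5-fold call. The plain ratio of KMT2D was over 1.5 too. KMT2D, the main H3K4 monomethyltransferase of enhancers together with KMT2C, stood at 1.88 and 3.03 FPKM (fold 1.61, interval 1.46 to 1.78). KMT2C stood at 3.08 and 4.47 FPKM (fold 1.45, interval 1.34 to 1.57). KMT2B, a promoter enzyme and the paralog of KMT2A, stood at 5.01 and 6.82 FPKM (fold 1.36, interval 1.25 to 1.49). SETD7, which also methylates many proteins other than histones, had a fold of 1.27 (1.16 to 1.39). SETD1A, the most abundant of these enzymes at 8.64 and 9.74 FPKM, had a fold of 1.13 (1.04 to 1.23). That interval held the median ratio of all genes at 1.08. Together the KMT2 genes, KMT2E included, summed to 15.9 and 22.5 FPKM. Of 12 partner genes of these complexes (COMPASS), shared and specific ones together, 5 were above 0 and 7 below, with a median of -0.05. Of all genes 39.7% were below 0. Of the core subunits that all these complexes share, ASH2L, RBBP5 and DPY30 had folds of 1.12 (1.03 to 1.21), 1.02 (0.922 to 1.13) and 0.962 (0.827 to 1.12). WDR5, the fourth core subunit, stood at 40.3 and 26.3 FPKM (fold 0.653, interval 0.613 to 0.695). NCOA6, PAGR1 and PAXIP1, which belong to the KMT2C and KMT2D complexes, had folds of 1.38 (1.27 to 1.51), 0.811 (0.623 to 1.05) and 0.818 (0.721 to 0.927).

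EZH2 (Entrez 2146, chromosome 7 at 148504349 to 148581413, minus strand), the catalytic subunit of polycomb repressive complex 2 in dividing cells, stood at 25.6 and 17.5 FPKM (fold 0.685, interval 0.620 to 0.756). EZH1, the paralog of resting cells, stood at 3.50 and 3.46 FPKM (fold 0.987, interval 0.859 to 1.13). EZH2 therefore made up 88.0% of the summed FPKM of the pair in the first library and 83.5% in the second. Of 9 partner genes of the complex 7 were below 0 and 2 above, with a median of -0.29. Of all genes 39.7% were below 0, and their median was 0.10. The core subunits SUZ12, EED, RBBP4 and RBBP7 had folds of 0.796 (0.752 to 0.843), 0.842 (0.777 to 0.913), 0.757 (0.715 to 0.801) and 0.777 (0.746 to 0.808). The accessory subunits went apart: PHF19 stood at 30.5 and 18.6 FPKM (fold 0.611, interval 0.579 to 0.646), and JARID2 stood at 3.05 and 6.18 FPKM (fold 2.02, interval 1.77 to 2.32). PHF1, a paralog of PHF19, had a fold of 1.37 (1.22 to 1.53).

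SUV39H1 (Entrez 6839, chromosome X at 48553945 to 48567407, plus strand), which writes H3K9 trimethylation in heterochromatin, stood at 15.6 and 9.37 FPKM (fold 0.603, interval 0.540 to 0.672). This was the lowest fold of the measured members, and 2.6% of measured genes had a lower difference. SUV39H2 had 6.43 and 5.61 FPKM and its ratio of 0.874 (0.753 to 1.01) was not distinct from 1 in counting error. The other H3K9 enzymes, outside the naming rule, did not share one direction. SETDB1 had 6.53 and 6.31 FPKM, EHMT1 had 3.04 and 3.02, and EHMT2 had 7.01 and 6.44. SETDB2 stood at 1.57 and 4.0 FPKM (fold 2.54, interval 2.14 to 3.03). Among 15 further lysine methyltransferases in all, 6 were above 0 and 9 below, with a median of -0.04. Of all genes 39.7% were below 0. NSD2 and SMYD5 had folds of 0.726 (0.677 to 0.779) and 0.738 (0.651 to 0.835), and PRDM2 had one of 1.27 (1.13 to 1.44).

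Enzymes of H3K36 and of histone H4 lysine 20 mostly differed little. SETD2, which writes H3K36 trimethylation in transcribed genes, stood at 9.01 and 9.78 FPKM (fold 1.09, interval 1.01 to 1.16), which turned to 0.989 with the trimmed mean. KMT5A, the cell cycle-regulated monomethyltransferase and the most abundant of this group, stood at 18 and 16.9 FPKM (fold 0.935, interval 0.867 to 1.01). KMT5B stood at 3.30 and 4.67 FPKM (fold 1.41, interval 1.26 to 1.59), and its paralog KMT5C had a fold of 1.09 (0.881 to 1.35). Of the remaining SETD genes, SETD9 stood at 5.53 and 3.77 FPKM (fold 0.682, interval 0.559 to 0.830). SETD5 stood at 8.0 and 9.74 FPKM (fold 1.22, interval 1.10 to 1.34). SETD3, an actin histidine methyltransferase, had 8.22 and 7.79 FPKM, SETD4 had 1.66 and 1.58, and SETD6, which methylates the NF-kB subunit RELA, had 6.78 and 6.92. The intervals of these last 3 held 1.

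Arginine methyltransferases were the family with the lowest median, at -0.31, which is 0.40 below the median of all genes. Of 7 measured members 5 were below 0, as 39.7% of all genes were, and 2 were above. Each had an interval that did not hold 1. Such intervals were common, with 43.6% of all genes above 1 and 26.4% below. No scaling moved a PRMT gene to the other side of 1. PRMT1 (Entrez 3276, chromosome 19 at 50179043 to 50192286, plus strand), which makes most asymmetric dimethylarginine, had the highest level of the measured members in the A375 library and stood below HDAC1 in the A375-VR library. It stood at 78.1 and 51.3 FPKM (fold 0.657, interval 0.631 to 0.683). PRMT5 (Entrez 10419, chromosome 14 at 23389734 to 23398617, minus strand), the main enzyme of symmetric dimethylarginine, stood at 15.4 and 10.1 FPKM (fold 0.656, interval 0.590 to 0.728). PRMT7, which makes monomethylarginine, stood at 5.98 and 4.13 FPKM (fold 0.690, interval 0.598 to 0.795). Its value is uncertain, since 13.9% of its exonic bases overlap SMPD3 on the opposite strand. PRMT3, a ribosome-associated enzyme, stood at 11.1 and 8.79 FPKM (fold 0.791, interval 0.721 to 0.868). PRMT6, which methylates arginine 2 of histone H3, stood at 11.1 and 9.74 FPKM (fold 0.874, interval 0.790 to 0.967). On the other side, PRMT2 stood at 9.21 and 10.4 FPKM (fold 1.13, interval 1.04 to 1.22), an interval that held the median ratio of all genes at 1.08. PRMT9, which methylates a splicing factor, stood at 2.49 and 3.31 FPKM (fold 1.33, interval 1.09 to 1.63). PRMT8, a brain enzyme, was listed at 0 in both libraries. Summed over the family, the level was 133 and 97.8 FPKM.

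Of 6 partner genes of the arginine methyltransferases 3 were above 0 and 3 below, with a median of -0.16, against 0.10 for all genes. WDR77 and CLNS1A, partners of PRMT5, had folds close to its own. WDR77, which forms the methylosome with PRMT5, stood at 32.2 and 21.6 FPKM (fold 0.669, interval 0.617 to 0.724). CLNS1A, which brings it spliceosomal Sm proteins, stood at 62.4 and 41.7 FPKM (fold 0.668, interval 0.610 to 0.731). RIOK1, the alternative adaptor, had a fold of 0.778 (0.669 to 0.903), and COPRS, the adaptor to histones, had one of 1.01 (0.940 to 1.09). BTG1, an antiproliferative protein that binds PRMT1, stood at 18.5 and 46.2 FPKM (fold 2.49, interval 2.35 to 2.65). CARM1, which is PRMT4 under another name and so outside the rule, stood at 27.4 and 24.8 FPKM (fold 0.904, interval 0.849 to 0.963).

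**Figure D3:**
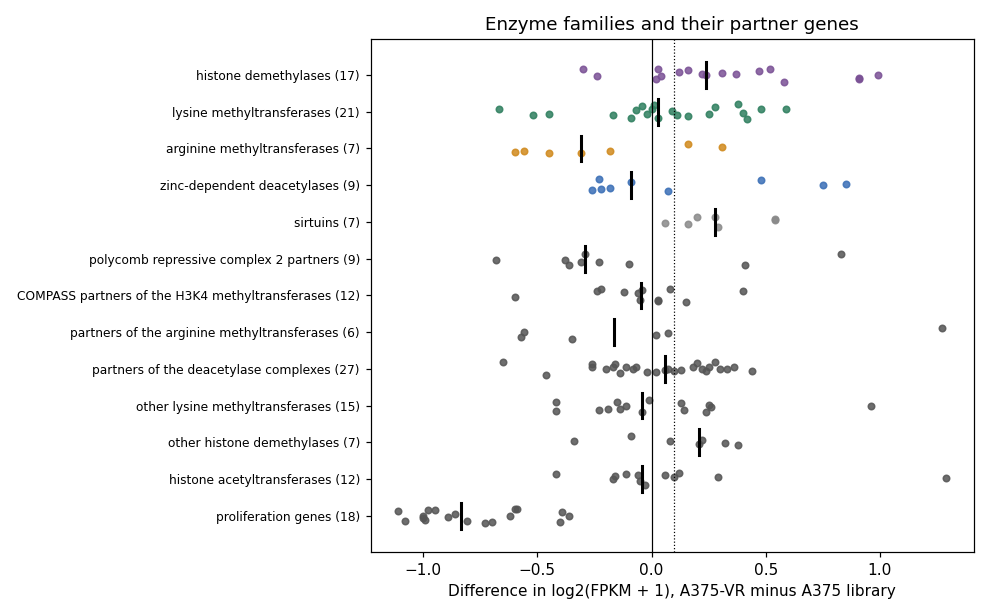
Difference in log2(FPKM + 1), A375-VR minus A375 library, for each measured gene of the 5 enzyme families (coloured) and of partner and related lists (grey), with the number of genes in brackets. Thick bars are medians and the dotted line is the median of all genes at 0.10; arginine methyltransferases, polycomb partners and proliferation genes have medians below -0.25, at -0.31, -0.29 and -0.84.

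Proliferation genes were lower beside EZH2, SUV39H1, PRMT1 and PRMT5. All 18 genes of the list (which shares no gene with the members) were below 0, 15 of them by at least 1.5-fold, with a median of -0.84. Of all genes 39.7% were below 0 and 4.21% were at least 1.5-fold lower. PCNA, the sliding clamp of replication, had 309 and 154 FPKM, and MCM5, MCM4 and TYMS had folds of 0.453 (0.426 to 0.482), 0.494 (0.477 to 0.511) and 0.438 (0.289 to 0.652). The part of this in the values of the enzymes was not tested.

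The 3 measured class I enzymes, nuclear subunits of corepressor complexes, had folds between 0.827 and 0.854. HDAC1 stood at 63.7 and 54.4 FPKM (fold 0.854, interval 0.817 to 0.893). HDAC2 stood at 14.1 and 11.9 FPKM (fold 0.840, interval 0.80 to 0.881). HDAC3, the catalytic subunit of the NCOR complexes, stood at 19.7 and 16.3 FPKM (fold 0.827, interval 0.767 to 0.891). HDAC8 stayed under the filter at 0.623 and 0.580 FPKM. HDAC1, HDAC2 and HDAC3 stayed below 1 under each scaling.

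Class IIa enzymes shuttle between nucleus and cytoplasm under the control of kinases and bind MEF2 transcription factors. HDAC4 (Entrez 9759, chromosome 2 at 239969864 to 240323348, minus strand) stood at 0.722 and 2.11 FPKM (fold 2.92, interval 2.04 to 4.25), the highest ratio of the measured members. It rested on 43 and 116 recovered reads and passed the filter through the A375-VR library alone. HDAC5 (Entrez 10014, chromosome 17 at 42154114 to 42201070, minus strand) stood at 3.04 and 5.78 FPKM (fold 1.90, interval 1.68 to 2.15). Its value is uncertain, since 24.0% of its exonic bases overlap G6PC3 on the opposite strand. HDAC7, the most abundant of the class, stood at 11.2 and 9.81 FPKM (fold 0.873, interval 0.817 to 0.933). HDAC9 stood at 1.05 and 0.929 FPKM (fold 0.884, interval 0.747 to 1.05). The class was thus divided, with HDAC7 going from 70.0% to 52.7% of its summed FPKM and HDAC5 from 19.0% to 31.0%.

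HDAC6, the cytoplasmic tubulin deacetylase, stood at 2.47 and 3.84 FPKM (fold 1.56, interval 1.31 to 1.85). HDAC11, the class IV enzyme, stood at 1.69 and 1.83 FPKM (fold 1.08, interval 0.864 to 1.36). HDAC10, a polyamine deacetylase, stayed under the filter at 0.238 and 0.442 FPKM and shares exonic bases with MAPK12. Over all HDAC genes, class I held 82.7% of the summed FPKM in the first library and 77.0% in the second, and class IIa 13.5% and 17.3%. Partners of the deacetylase complexes went both ways, with 15 of 27 genes above 0 and 12 below and a median of 0.06 that is below the 0.10 of all genes. GATAD2A, a NuRD subunit, stood at 27.9 and 17.5 FPKM (fold 0.625, interval 0.592 to 0.660), and ING2, a SIN3 complex subunit, had 21.3 and 15.1 FPKM. TBL1X, a subunit of the NCOR complexes, had 16.6 and 22.9 FPKM, and SAP130 had 6.69 and 8.86. The opposing enzymes, the histone acetyltransferases, had a median of -0.04 over 12 genes. Of these 5 were above 0 and 7 below, where 39.7% of all genes were below 0. KAT2B, known as PCAF, stood at 3.92 and 11 FPKM (fold 2.81, interval 2.50 to 3.16). HAT1, which acetylates new histone H4, had 17.1 and 12.6 FPKM, KAT6A had 1.90 and 2.54, and KAT2A had 24.4 and 21.6.

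All 7 sirtuins had a fold above 1 as deposited, where 60.3% of all genes had a difference above 0. Their median difference was 0.28, against 0.10 for all genes, and it was 0.15 with the trimmed mean. An interval above 1 was found for 4 of the 7 and for 43.6% of all genes. The trimmed mean and centring put SIRT3 below 1. The nuclear sirtuins were close to each other. SIRT1, a deacetylase of p53 and histones, stood at 6.90 and 8.66 FPKM (fold 1.26, interval 1.12 to 1.41). SIRT6, which acts on H3K9 acetylation, was the most abundant at 9.45 and 11.7 FPKM, a fold of 1.23 (1.09 to 1.40). SIRT7, a nucleolar sirtuin, stood at 4.80 and 5.65 FPKM (fold 1.18, interval 1.04 to 1.33). Its interval held the median ratio of all genes at 1.08. SIRT2, mainly cytosolic, stood at 5.22 and 8.07 FPKM (fold 1.55, interval 1.39 to 1.72), the highest among the sirtuins whose interval lay above 1. The mitochondrial sirtuins had intervals that held 1. SIRT3 had 2.50 and 2.64 FPKM, SIRT5 had 1.26 and 1.53, and SIRT4 had 1.19 and 2.19 from 13 and 22 recovered reads, a fold of 1.83 (0.884 to 3.96). The recovered lengths of SIRT3, SIRT5 and SIRT4 (2601, 6507 and 611 bases) are below their exonic lengths (5553, 11295 and 1222). Their intervals can therefore be too wide.

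Length and level moved with these differences. Measured members were longer than other genes, with a median length of 7739 bases against 5338 for all measured genes, and 20 of the 61 lay in the longest of 10 length bins. Lengths were exonic lengths in GENCODE for 10495 genes and, for the other 266, those recovered from the FPKM values. Over all 10761 measured genes the median difference was 0.06 in the shortest bin, 0.01 in the next, and 0.15 in the longest, and Spearman's correlation of length and difference across genes was 0.10. Across the 61 members it was 0.31. For the mean level of the libraries it was -0.25 across all genes and -0.39 across the members. Genes within a library share its preparation and are not independent replicates. With the median of its length bin taken from each gene, the median of the members was 0.00, that of the histone demethylases 0.15, of the arginine methyltransferases -0.39 and of the sirtuins 0.20. The lysine methyltransferases went from 0.03 to -0.11 and the zinc-dependent deacetylases from -0.09 to -0.24. The part of length in the values of single enzymes was not tested.

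**Figure D4:**
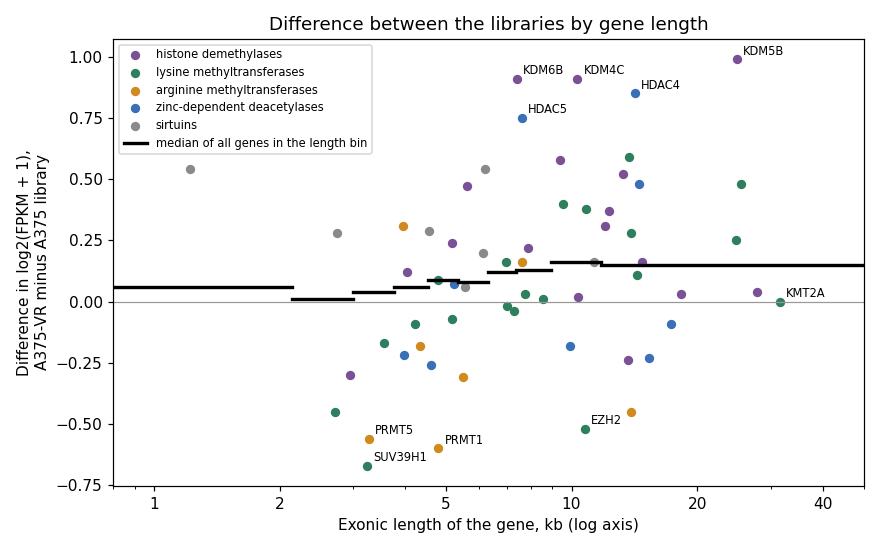
Difference in log2(FPKM + 1), A375-VR minus A375 library, against gene length (exonic in GENCODE, or recovered from FPKM where GENCODE gave none; log axis) for the 61 measured members, coloured by family, with black steps for the median of all measured genes in each of 10 length bins. The steps lie between 0.01 (second shortest bin) and 0.16 (second longest), and the enzymes named in the plot lie farther from them, KMT2A excepted.

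The promoter windows shown above were read for the motifs by letters alone. EZH2 held a TTTGGCGC word at position 1 and CCAAT matches at positions -94, -66, -47 and -13, counted from 0 at the first transcribed base. PRMT5 held 3 CCAAT matches, at -183, -143 and -35. In PRMT1 they lay at -156 and -115, and in SUV39H1 at -38. Such matches are common: the CCAAT box was in the window of 3882 of 8919 measured genes with a window (43.5%) and of 22 of 58 members (37.9%). An E2F word was in 6.72% of genes and in 5 of 58 members (8.62%), namely EZH1, EZH2, KDM1B, PRMT7 and SIRT6, which were not all lower. It was in 8 of 14 proliferation genes with a window (57.1%). KDM4C held 2 E-box matches, at -63 and -31, where 12.5% of genes and 8 of 58 members (13.8%) held one. The windows of KDM5B and KDM6B held no match to any of the 5 motifs. TTTGAA was in 12.8% of genes and 5 members, and TGACGTCA in 4.03% and 2 members.

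Reads of genes that overlap on opposite strands are told apart only where strand is used in counting, and whether it was used is not stated in the sources used here. Besides HDAC5, PRMT7 shares 13.9% of its exonic bases with SMPD3 and SETD6 17.5% with CNOT1 on the opposite strand, and these values are uncertain. KMT5C shares 18.6% of its exonic bases with an unnamed gene model on its own strand and is uncertain too.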

How the data were processed

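RNA of the 2 libraries was read as pairs of 150 bp after a stranded TruSeq mRNA preparation and aligned with TopHat 1.3.3 to GRCh37, per the series design text. The authors deposited FPKM per gene; the counting tool, annotation, filters and use of strand were not given in the sources used here. From these, log2(FPKM + 1) was compared (A375-VR minus A375) for genes with FPKM of at least 1 in a library. Groups follow the titles. With 1 library per group no test was run. Whole reads were recovered from the FPKM values: the files fix how the totals relate, and their common factor was the one of 12 multiples under which most gene lengths equalled GENCODE 44 exonic lengths (16.0% of 3000 genes, next 10.8%). Reads are the smallest whole numbers that fit, so intervals can be too wide. Steps were tested on simulated data with Python 3.11.15, numpy 2.4.6, pandas 2.3.3 and scipy 1.17.1. Named genes are the members and up to 4 genes per other list by size of difference, with others named after their values were seen (EED, SUZ12, RBBP7, ASH2L, RBBP5, DPY30, SETDB1, EHMT1, EHMT2, COPRS and the pigment genes). Members and lists were chosen with earlier results of these data known. Promoters came from RefSeq for 63 of 67 members.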

Additional observations from a re-analysis of the deposited data

How the results depend on the processing

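The comparison by length was chosen after seeing the data. With a pseudocount of 0.1, 5 members (8.20%) were 2-fold higher (KDM5B, KDM6B, KDM4C, KDM7A and HDAC4), against 6.40% of all genes. At 1.5-fold 13 members (21.3%) were higher, against 17.0% of all genes. In all, 689 genes were 2-fold higher and 140 lower. With a pseudocount of 0.5, 4 members (6.56%) were 2-fold higher, against 4.42% of all genes. After rescaling to a common sum, 4 members (6.56%) were 2-fold higher, against 5.80% of all genes. At 1.5-fold 13 members (21.3%) were higher and 1 (1.64%) lower, against 16.6% and 5.19% of all genes. In all, 624 genes were 2-fold higher and 104 lower. In these settings the pseudocount is smaller beside the values. Centring on the median ratio gave 4 members (6.56%) 1.5-fold lower, and 101 genes 2-fold and 760 genes (7.06%) 1.5-fold lower. The trimmed mean gave 4 (6.56%), 110 and 815 (7.57%). With the filter at FPKM 5, 783 genes were 1.5-fold higher, since fewer genes are counted. Less the median of genes of like length, 5 members (8.20%) were 1.5-fold lower, against 6.24% of all genes. The median of the members was then 0.00. The lysine methyltransferases, at a median of 0.03, turned to -0.02 with the filter at FPKM 5, -0.07 after centring, -0.09 with the trimmed mean and -0.11 less the median of like length. The H3K36 and H4K20 group turned from 0.10 to -0.01 with the trimmed mean and -0.02 less the median of like length, the median of all genes to -0.02 with the trimmed mean, and SETD2 to a fold of 0.989. Where no cause is given, the cause was not tested. Of 81 alternative values of the counts and of the median of the members, 19 moved and 62 did not. Of those of the other medians and of single genes, 320 did not move, 81 moved and 8 reversed. Among medians that moved were those of KDM7A and KDM8 (0.35 to 0.65 with a pseudocount of 0.1), class IIa (0.33 to 0.75 with the filter on the mean), the zinc-dependent deacetylases (-0.09 to -0.22 with the filter at FPKM 5) and the sirtuins (0.28 to 0.15 with the trimmed mean). KDM4D, SIRT4, KDM7A and HDAC4 rest on few recovered reads. Their recovered lengths (1489, 611, 4715 and 3342 bases) are below their exonic lengths (2951, 1222, 9378 and 14179). Their true reads can therefore be more than those recovered, and their intervals too wide. No paired analysis was possible because each group has 1 library.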
